A study of Mus musculus with 12 samples.

Results

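The genes described here are 10 genes of the unfolded protein response (UPR) and the integrated stress response (ISR), which were taken from the expression table by their gene names: Hspa5, Pdia4, Dnajb9, Herpud1, Xbp1, Atf4, Ddit3, Trib3, Chac1 and Asns. They stood on 11 of the 21936 entries of the table, because Ddit3 had a second, short entry (ENSMUSG00000116429) that lay inside the first one and held 0 counts in all 9 libraries. The other 10 entries passed the filter on low counts in every comparison, so the 10 named genes were all tested. Liver RNA came from 3 groups of male C57BL/6 mice (C57BL/6 J in the study's methods) with 3 libraries each, and every mouse had carried the same injury: carbon tetrachloride (CCl4), a hepatocyte toxin that leads to fibrosis, injected into the peritoneum over 8 weeks, with 2 injections a week of 1 mL/kg. Mice were 6 weeks old when bought. Sacrifice of the liver fibrosis group (LFG) came at the end of CCl4. The regression group (REG) was then injected with 200 µL of PBS, and the hADMSCs-Exo group with 250 µg of exosomes from human adipose mesenchymal stem cells in the same volume, both into the tail vein with 2 injections a week over 4 weeks. LFG livers were therefore taken at a younger age and with no interval after CCl4, and age, time since CCl4 and recovery cannot be told apart in a comparison with LFG. The libraries hold no group without CCl4. The table names the hADMSCs-Exo libraries MSC_E, a name the labels do not spell out, so that the identity of this group rests on reading it as exosomes rather than cells.

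The UPR is the reaction of a cell to misfolded protein in the endoplasmic reticulum (ER). The sensors PERK, IRE1 and ATF6 sit in the ER membrane: IRE1 splices Xbp1 mRNA into the form that encodes the active transcription factor, ATF6 is cut to release a transcription factor, and PERK phosphorylates eIF2α. The ISR is the wider program that starts with eIF2α phosphorylation by PERK, GCN2, PKR or HRI, which lowers general protein synthesis while ATF4 is translated. Hepatocytes secrete large amounts of plasma protein, and their ER is densely loaded with chaperones. Gene counts do not tell spliced from unspliced Xbp1, and they do not measure translation of Atf4.

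Promoter sequences are shown because the 10 genes answer to different arms of the response, and the known elements of these arms can be looked for in the bases around each start. All 10 genes matched 1 window each in the RefSeq promoter set (GRCm38.p6, 250 bases before to 50 after the start), and 4 motifs were searched on both strands. They were the ER stress response element ERSE (found in 0.119% of all 32851 windows), its shorter form ERSE-II (in 0.0365%), the UPR element core UPRE (TGACGTGG, in 0.676%) and the core CARE of the composite element bound by ATF4 with C/EBP factors (TGATGNAA, in 3.97%). In these 10 windows no match of one motif lay on a match of another. A match was held by 5 of the genes, and the capitals mark the matched bases, in the direction of the gene's transcription.
Hspa5 (chr2:34772020-34772048, plus strand, ERSE): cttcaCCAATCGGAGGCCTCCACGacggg
Herpud1 (chr8:94386297-94386407, plus strand, CARE on the opposite strand and then ERSE-II): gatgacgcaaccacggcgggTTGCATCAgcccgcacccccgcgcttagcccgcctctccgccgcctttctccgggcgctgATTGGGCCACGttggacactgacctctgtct
Asns (chr6:7693214-7693243, minus strand, CARE): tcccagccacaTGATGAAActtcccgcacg
Chac1 (chr2:119351029-119351076, plus strand, CARE on the opposite strand): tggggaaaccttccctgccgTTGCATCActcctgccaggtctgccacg
Trib3 (chr2:152344029-152344056, minus strand, CARE on the opposite strand, behind the RefSeq start): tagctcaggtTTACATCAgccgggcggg
Counted from the RefSeq start, the ERSE of Hspa5 began at position -65 and the ERSE-II of Herpud1 at -52, whereas the CARE matches of Herpud1, Asns and Chac1 began at -112, -23 and -193. The RefSeq start is not the gene boundary given for each gene below, which comes from the table's annotation. It lies 120 bases behind that boundary for Hspa5 and 45 bases behind it for Asns, so that by the table's coordinates both matches fall inside the gene, in an annotated UTR. For Trib3 it lies 28 bases before the boundary, and the match falls before the gene. These letters were not found in the windows of Xbp1, Atf4, Ddit3, Dnajb9 and Pdia4. For Dnajb9 the RefSeq start lies 258 bases behind the boundary, so that its whole window falls inside the gene. The bases before the table's boundary of Dnajb9 were therefore not searched. A match is a description of the sequence and was not tested as a binding site.

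Total counts were between 13837445 and 19840917 per library. LFG 3 stood apart: on the first principal component, which held 48.7% of the variance, it lay at 96.6, against -79.2 and -56.1 for LFG 1 and LFG 2 and -17.6 to 17.0 for the other 6 libraries. Log2 fold changes against LFG are therefore given for the 10 genes with and without LFG 3, as are the medians of the pathway lists. As a check of the tissue, the 6 hepatocyte markers (Alb, Apoa1, Ttr, Serpina1a, Fgb and Cps1) were above 0 in every library and summed to 82575 to 143783 CPM (read counts scaled to a common library size) in LFG, 165805 to 175076 in REG and 120169 to 137522 in hADMSCs-Exo. LFG 3 had the lowest sums of stellate cell and myofibroblast markers (17.1 CPM) and of macrophage markers (116 CPM) of all libraries. The former sum was 875 and 517 CPM in LFG 1 and LFG 2. These are bulk libraries, in which fewer cells of a type and less RNA per cell cannot be told apart.

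Per gene length, in the FPKM the authors deposited, Hspa5 and Herpud1 were the most abundant of the 10 genes in LFG, at 305 ± 111 and 258 ± 70.4 FPKM (SD, n = 3), and their ranges overlapped. Pdia4 followed with 74.4 to 137 FPKM in LFG and Xbp1 with 59.4 to 77.9, and these ranges also overlapped. Dnajb9 (28.9 to 50.3) and Atf4 (32.9 to 51.5) overlapped in turn. Ddit3, Trib3, Chac1 and Asns were the low group, and none of them exceeded 14.5 FPKM in any of the 9 libraries. That highest value belonged to Chac1 in hADMSCs-Exo 1, and in counts these 4 genes ranged from 24 to 390 reads per library, so they carry more counting error than the chaperones.

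REG against LFG compares livers taken 4 weeks after CCl4 with livers taken at its end. Hspa5, Dnajb9 and Pdia4 were lower in all 3 REG libraries than in all 3 LFG libraries, which held for 9.63% of all genes tested. Hspa5 (ENSMUSG00000026864, chromosome 2, 34771970 to 34777547, plus strand, GRCm38) encodes BiP, the Hsp70 chaperone of the ER lumen that also holds the sensors inactive. It stood at 1122, 1438 and 915 CPM in LFG 1, 2 and 3, at 407, 388 and 549.9 CPM in REG 1, 2 and 3, and at 498, 527 and 738 CPM in hADMSCs-Exo 1, 2 and 3. LFG was the high group, and its lowest library, LFG 3, was still above the highest library of the other groups, hADMSCs-Exo 3. REG and hADMSCs-Exo overlapped. Hspa5 had a log2 fold change (log2FC) of -1.37 in REG against LFG with a standard error (SE) of 0.28, and its adjusted p was 0.265 (edgeR's quasi-likelihood test, Benjamini-Hochberg method). Without LFG 3 it was -1.48, with an adjusted p of 0.0159. Over the alternatives the log2FC ran from -1.65 to -1.19 and the adjusted p from 0.000243 to 0.928.

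**Figure D1:**
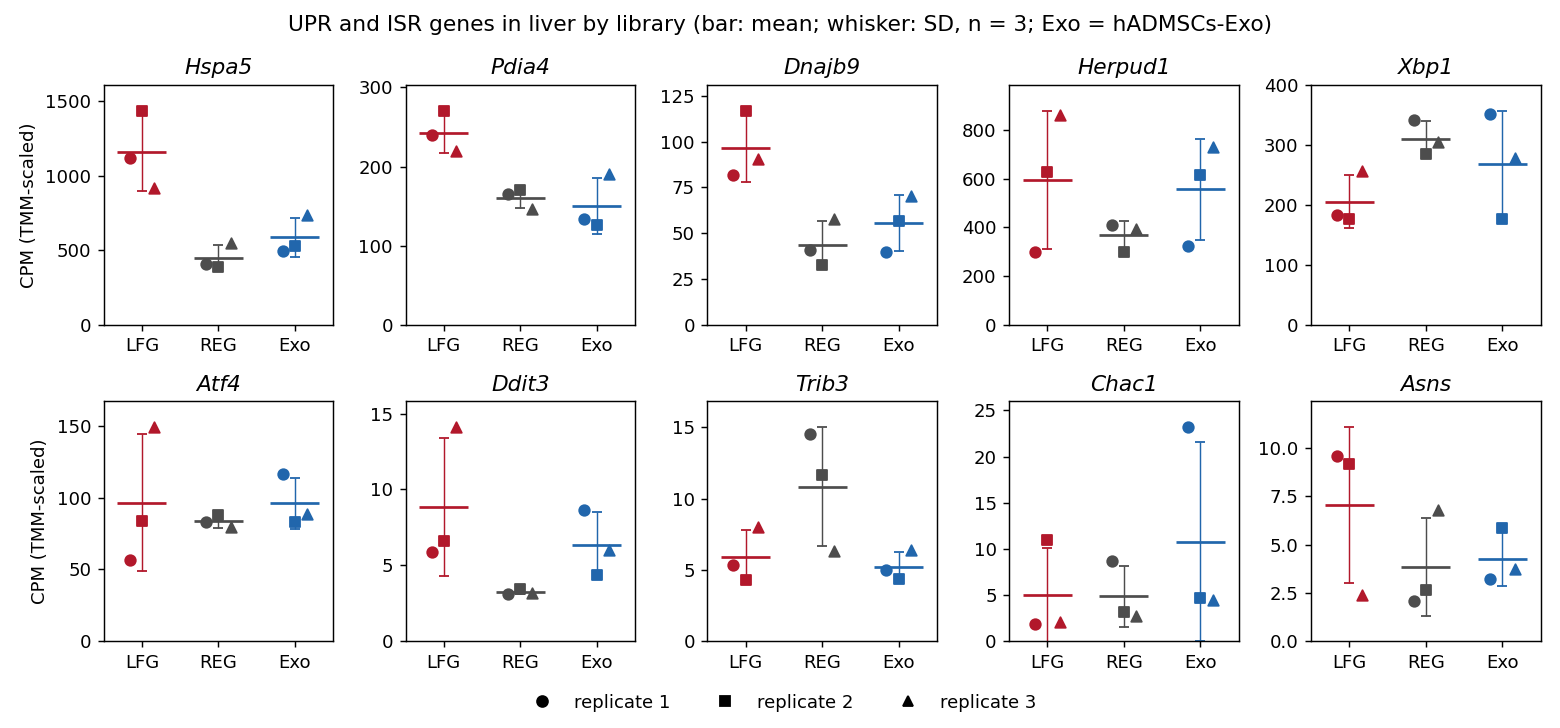
Each panel plots 1 gene, with CPM after TMM scaling on a linear axis from 0 and the groups LFG, REG and hADMSCs-Exo (Exo) on the x axis; points are libraries, the marker shape gives the replicate number, and bars and whiskers are the mean and SD of 3 libraries, with whiskers that would pass below 0 ended there. Hspa5, Pdia4 and Dnajb9 have all LFG points above all other points, Ddit3 has the 3 REG points lowest, and Chac1 has a single high point at 23.2 CPM in hADMSCs-Exo 1.

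Dnajb9 (ENSMUSG00000014905, chromosome 12, 44205559 to 44210326, minus strand) encodes ERdj4, a J-domain co-chaperone of BiP. Its levels were 81.7, 117 and 90.3 CPM in LFG 1, 2 and 3, then 40.7, 32.6 and 57.9 CPM in REG, and 39.8, 56.8 and 70.4 CPM in hADMSCs-Exo. The LFG libraries were again all above the other 6, with LFG 1 the closest to hADMSCs-Exo 3. For Dnajb9 the log2FC in REG against LFG was -1.14 (SE 0.27, adjusted p = 0.309 by edgeR), and without LFG 3 it was -1.15 with an adjusted p of 0.0302. The adjusted p over the alternatives ran from 0.0152 to 0.928. Pdia4 (ENSMUSG00000025823, chromosome 6, 47796141 to 47813430, minus strand) encodes a protein disulfide isomerase, which forms and rearranges disulfide bonds in secreted proteins. It stood at 239, 271 and 219 CPM in LFG, at 165, 171 and 146 CPM in REG and at 133, 126 and 191 CPM in hADMSCs-Exo. LFG and the other groups did not overlap, but the step was smaller than for Hspa5 and Dnajb9. For Pdia4 the log2FC in REG against LFG was -0.60 (SE 0.19, adjusted p = 0.388), against -0.63 and an adjusted p of 0.0505 without LFG 3 (0.0224 to 0.928 over the alternatives).

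In hADMSCs-Exo against LFG the same 3 genes were the only ones of the 10 with an unadjusted p under 0.05, where 3.68% of all genes had one on the lower side. Hspa5 had a log2FC of -1.003 (SE 0.30), Dnajb9 of -0.81 (SE 0.27) and Pdia4 of -0.72 (SE 0.24), each with an adjusted p of 0.805 by edgeR. Without LFG 3 the log2FC values were -1.12, -0.83 and -0.76, and the adjusted p was 0.0577, 0.103 and 0.0940. The lowest adjusted p over the alternatives was 0.0577 for Hspa5, 0.0813 for Dnajb9 and 0.0851 for Pdia4, and the highest was 1.00 for each. Both comparisons share the LFG libraries, so they are not independent of each other. Between hADMSCs-Exo and REG the log2FC values were 0.39 (SE 0.21) for Hspa5, 0.35 (SE 0.26) for Dnajb9 and -0.10 (SE 0.18) for Pdia4, and the libraries of these groups overlapped for all 3 genes. Single libraries moved these values: without hADMSCs-Exo 3 they were 0.19, 0.14 and -0.31, and without REG 3 Dnajb9 rose to 0.60.

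Heat shock genes, a separate proteostasis program of mostly cytosolic chaperones, were also high in LFG as a sum. The 14 genes of that list, which include the mitochondrial chaperones Hspd1 and Hspe1, summed to 4849 to 5315 CPM in LFG, 2415 to 2859 CPM in REG and 2914 to 3557 CPM in hADMSCs-Exo, and LFG overlapped neither of the other groups. LFG 3 lay between LFG 1 and LFG 2 on this sum, although it stood apart on the principal component. The hepatocyte marker sum given above was lower in all LFG libraries than in all REG libraries. The part of either in the chaperone values was not tested.

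Herpud1 (ENSMUSG00000031770, chromosome 8, 94386438 to 94395377, plus strand) encodes a membrane protein of ER-associated degradation (ERAD), which exports misfolded protein from the ER to the proteasome. It holds the ERSE-II and the CARE shown above, and its levels were 299, 627 and 865 CPM in LFG 1, 2 and 3, 412, 299 and 393 CPM in REG, and 325, 614 and 731 CPM in hADMSCs-Exo. LFG and hADMSCs-Exo both spanned a wide range that overlapped REG, from LFG 1 and hADMSCs-Exo 1 at the low end to LFG 3 and hADMSCs-Exo 3 at the high end. The log2FC was -0.70 (SE 0.41) in REG against LFG, -0.12 (SE 0.47) in hADMSCs-Exo against LFG and 0.59 (SE 0.29) in hADMSCs-Exo against REG. The first of these shrank to -0.30 without LFG 3, and the second turned to 0.27, while the third was 0.35 without hADMSCs-Exo 3 and 0.87 without hADMSCs-Exo 1. Herpud1 overlaps the antisense gene Gm15890 by 535 bases, and the use of strand in counting is not given in the sources used here, so reads of that stretch cannot be assigned to one of them.

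Xbp1 (ENSMUSG00000020484, chromosome 11, 5520659 to 5525893, plus strand) was the only one of the 10 genes with higher counts in REG than in LFG and no overlap, as 9.28% of all genes had. It stood at 184, 176 and 256 CPM in LFG, 342, 285 and 305 CPM in REG, and 352, 176 and 278 CPM in hADMSCs-Exo. The REG libraries were all above the LFG libraries, and hADMSCs-Exo ranged across both groups. Its log2FC in REG against LFG was 0.60 (SE 0.24, adjusted p = 0.430 by edgeR). Without LFG 3 it was 0.82 with an adjusted p of 0.0307, below the fold limit, and over the alternatives the adjusted p ran from 0.0222 to 0.928. Against LFG, hADMSCs-Exo had a log2FC of 0.37 (SE 0.31), or 0.58 without LFG 3 and 0.15 without hADMSCs-Exo 1, and against REG of -0.21 (SE 0.24).

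Atf4 (ENSMUSG00000042406, chromosome 15, 80255184 to 80257541, plus strand), the transcription factor at the center of the ISR, is controlled largely at translation. Its mRNA was at 56.4, 84.0 and 149 CPM in LFG, 82.9, 88.1 and 79.4 CPM in REG, and 117, 83.1 and 88.5 CPM in hADMSCs-Exo. The LFG libraries held both the lowest and the highest value, and all groups overlapped. The log2FC was -0.21 (SE 0.36) in REG against LFG, -0.02 (SE 0.36) in hADMSCs-Exo against LFG and 0.20 (SE 0.15) in hADMSCs-Exo against REG. Both values against LFG became positive without LFG 3, at 0.29 and 0.45, and the value against REG was 0.038 without hADMSCs-Exo 1.

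Ddit3 (ENSMUSG00000025408, chromosome 10, 127290774 to 127296288, plus strand) encodes CHOP, a transcription factor downstream of ATF4 that is linked to cell death under lasting ER stress. REG was its low group: Ddit3 stood at 3.14, 3.47 and 3.20 CPM in REG 1, 2 and 3, against 8.68, 4.34 and 6.01 CPM in hADMSCs-Exo and 5.89, 6.60 and 14.1 CPM in LFG. All 3 REG libraries were below the other 6, and LFG and hADMSCs-Exo overlapped. Of all genes tested, 9.63% were lower in REG than in LFG with no overlap, and 8.14% were higher in hADMSCs-Exo than in REG. The share of all genes with REG below both other groups was not computed. In counts, REG had 51 to 63 reads, hADMSCs-Exo 72 to 146 and LFG 119 to 159. The log2FC was -1.44 (SE 0.41, adjusted p = 0.338 by edgeR) in REG against LFG, where leaving out LFG 3 gave -0.90 and an adjusted p of 0.0520 (0.0253 to 0.928 over the alternatives). It was 0.95 (SE 0.29, adjusted p = 0.407) in hADMSCs-Exo against REG, with an adjusted p between 0.196 and 1.00 over the alternatives. In hADMSCs-Exo against LFG it was -0.49 (SE 0.44), and 0.03 without LFG 3. Ddit3 overlaps Mars by 68 bases and Gm4189 by 15 bases on the opposite strand.

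Trib3 (ENSMUSG00000032715, chromosome 2, 152337422 to 152344032, minus strand) encodes a pseudokinase that is induced by ATF4 and CHOP. REG, the low group of Ddit3, held the highest libraries of Trib3, which stood at 14.5, 11.7 and 6.34 CPM in REG, 4.99, 4.34 and 6.39 CPM in hADMSCs-Exo, and 5.38, 4.32 and 7.98 CPM in LFG. REG 1 and REG 2 were above all other libraries, whereas REG 3 lay within the range of the other groups. Trib3 had a log2FC of -1.05 (SE 0.32, adjusted p = 0.407 by edgeR) in hADMSCs-Exo against REG, with an adjusted p between 0.126 and 1.00 over the alternatives. In REG against LFG it was 0.88 (SE 0.40), or 1.19 without LFG 3, and in hADMSCs-Exo against LFG it was -0.19 (SE 0.34), or 0.11 without LFG 3.

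Chac1 and Asns, further targets of ATF4, varied widely within groups. Chac1 (ENSMUSG00000027313, chromosome 2, 119351229 to 119354381, plus strand) encodes an enzyme that breaks down glutathione. It stood at 1.85, 10.9 and 2.13 CPM in LFG, 8.69, 3.20 and 2.77 CPM in REG, and 23.2, 4.70 and 4.49 CPM in hADMSCs-Exo. In each group 1 library was far above the other 2, namely LFG 2, REG 1 and hADMSCs-Exo 1. The log2FC in hADMSCs-Exo against REG was 1.14 (SE 0.71), and it was -0.09 without hADMSCs-Exo 1. Against LFG, Chac1 had a log2FC of -0.02 in REG and 1.09 in hADMSCs-Exo, or -0.35 and 0.77 without LFG 3, and without LFG 2 these were 1.2997 and 2.42. Asns (ENSMUSG00000029752, chromosome 6, 7675169 to 7693254, minus strand) encodes asparagine synthetase. It stood at 9.59, 9.15 and 2.39 CPM in LFG, 2.09, 2.65 and 6.77 CPM in REG, and 3.21, 5.85 and 3.73 CPM in hADMSCs-Exo. LFG 1 and LFG 2 were the highest libraries and LFG 3 was among the lowest, on 27 reads. Asns had a log2FC of -0.88 (SE 0.65) in REG against LFG and -0.76 (SE 0.56) in hADMSCs-Exo against LFG, which became -1.25 (adjusted p = 0.0953) and -1.13 (adjusted p = 0.0676) without LFG 3. The first value was -1.53 without REG 3 and -0.56 without REG 1, and the second -0.47 without LFG 1. The adjusted p of Asns over the alternatives ran from 0.0329 to 0.939 in the first and from 0.0676 to 1.00 in the second comparison.

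**Figure D2:**
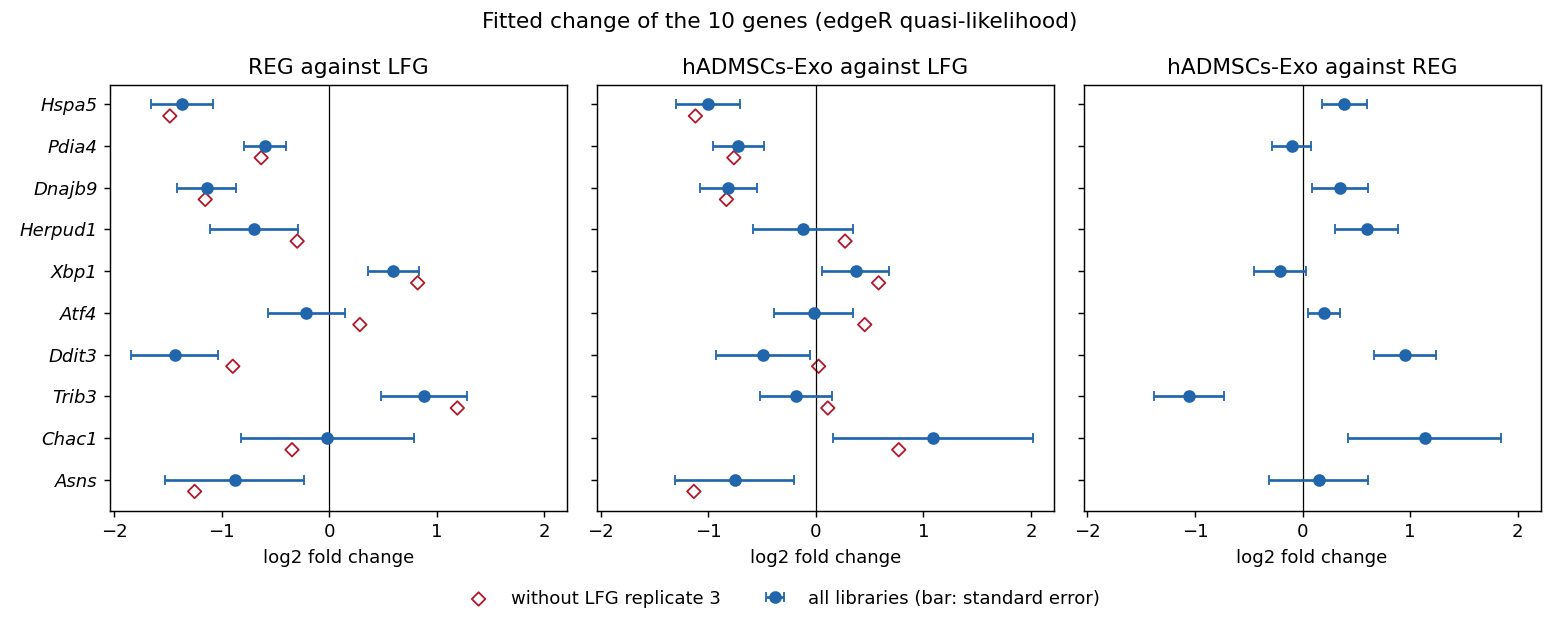
Log2FC on the x axis for each of the 10 genes in 3 pairwise comparisons; filled points with bars are the edgeR estimate with its standard error from 6 libraries, and open diamonds are the estimate without LFG 3 where LFG was compared. Hspa5, Pdia4 and Dnajb9 keep negative values against LFG with and without LFG 3, whereas Atf4 moves from negative to positive.

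Across the 10 genes, 0 passed an adjusted p under 0.05 with a log2FC of at least 1 in size by edgeR in any of the 3 comparisons. Of all genes tested, 0.00811% passed in hADMSCs-Exo against REG, 0% in REG against LFG and 0% in hADMSCs-Exo against LFG. At an unadjusted p under 0.05, 5 of the 10 genes passed in REG against LFG, 1 higher and 4 lower (4.62% and 6.7% of all genes tested). For hADMSCs-Exo against LFG these were 0 higher and 3 lower (2.3% and 3.68% of all genes), and for hADMSCs-Exo against REG 1 higher and 1 lower (5.34% and 4.69%). DESeq2 called 2 of the 10 genes in REG against LFG, Hspa5 and Dnajb9, where 1.91% of all genes passed, and 0 in hADMSCs-Exo against LFG (0.48%) and hADMSCs-Exo against REG (0.543%). Called by limma with voom and quality weights were Hspa5, Dnajb9 and Asns in REG against LFG (10.3% of all genes), and 0 of the 10 in the comparisons of hADMSCs-Exo with LFG (0.00801%) and with REG (0.0243%). By edgeR without LFG 3, Hspa5 and Dnajb9 were called in REG against LFG, where 10.7% of all genes passed, and 0 of the 10 in hADMSCs-Exo against LFG, where 5.97% passed.

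The groups did not overlap for 5 of the 10 genes in REG against LFG, 1 higher and 4 lower in REG, where this held for 9.28% and 9.63% of all genes tested. With hADMSCs-Exo against LFG it held for 0 higher and 3 lower genes (6.73% and 5.52% of all genes), and with hADMSCs-Exo against REG for 1 higher gene, Ddit3, and 0 lower (8.14% and 7.37%). The median log2FC of the 10 genes was -0.65 in REG against LFG, beside -0.07 for all genes tested. It was -0.34 in hADMSCs-Exo against LFG, beside -0.06, and 0.27 in hADMSCs-Exo against REG, beside 0.01. Without LFG 3 the first of these was -0.49 and the second 0.07.

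The wider pathway was read from lists of genes of known function, which do not hold the 10 genes. Among 20 genes of ER folding, 15 had a negative and 5 a positive log2FC in REG against LFG, with a median of -0.40 (-0.07 for all genes tested), and 6 lower and 0 higher genes had an unadjusted p under 0.05, as 6.7% and 4.62% of all genes had. The medians without LFG 3 were -0.33 for the list and -0.0051 for all genes. Creld2, a disulfide isomerase of the ER, had a log2FC of -2.06 (SE 0.23, adjusted p = 0.230 by edgeR), Hyou1, an ER chaperone that exchanges the nucleotide of BiP, of -1.78 (SE 0.35), and Manf, a secreted ER stress protein that binds BiP, of -1.59 (SE 0.27). Without LFG 3 these were -1.997, -1.91 and -1.299, with adjusted p of 0.0107, 0.0159 and 0.0145. The adjusted p over the alternatives ran from 4.71e-11 for Creld2, 0.000574 for Hyou1 and 6.52e-05 for Manf up to 0.928 for each. With hADMSCs-Exo against LFG 18 of the 20 genes were negative (median -0.39, or -0.27 without LFG 3, beside -0.06 and 0.0041 for all genes). An unadjusted p under 0.05 was found for 6 lower and 0 higher genes (3.68% and 2.3% of all genes), led by Creld2 at -1.74 (SE 0.31), Hyou1 at -1.45 (SE 0.32) and Sdf2l1, a cofactor of ER J-domain proteins, at -0.97 (SE 0.23), which were -1.69, -1.58 and -0.90 without LFG 3. In hADMSCs-Exo against REG the list had 10 genes on each side (median -0.04, beside 0.01 for all genes), and 0 had an unadjusted p under 0.05, as 5.34% of all genes had on the higher and 4.69% on the lower side.

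Of 14 genes listed under ERAD, 10 were negative in REG against LFG (median -0.16, or -0.18 without LFG 3). The list includes Hspa13, whose part in ERAD is not shown here. With each library left out the median ran from -0.26 (without LFG 1) to -0.10 (without REG 1). In this comparison 4 lower and 0 higher genes had an unadjusted p under 0.05 (6.7% and 4.62% of all genes). Syvn1, the ubiquitin ligase Hrd1 of ERAD, stood at -2.27 (SE 0.34, adjusted p = 0.243 by edgeR), beside -1.25 for Edem3 and -0.96 for Hspa13, and without LFG 3 these were -2.04, -1.32 and -1.10. Against LFG, hADMSCs-Exo had 3 lower and 0 higher genes with an unadjusted p under 0.05 (3.68% and 2.3% of all genes), which were Syvn1 at -1.55, Hspa13 at -0.99 and Edem3 at -0.81, or -1.33, -1.13 and -0.88 without LFG 3. The median of the list was -0.13 there and turned to 0.040 without LFG 3. Syvn1 was also the only gene of the list with an unadjusted p under 0.05 in hADMSCs-Exo against REG, at 0.73 (SE 0.19, adjusted p = 0.394), so its levels in hADMSCs-Exo lay between those of REG and LFG. The median of the list there was 0.07, and 5.34% of all genes were higher at this threshold.

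The sensors and the eIF2 arm were 16 genes, of which 3 lower and 0 higher genes had an unadjusted p under 0.05 in REG against LFG (6.7% and 4.62% of all genes), with a median of -0.27, or -0.30 without LFG 3. These were Eif2ak3, which encodes PERK, at -1.01 (SE 0.25), Creb3l2, a membrane-bound transcription factor, at -0.90 (SE 0.22) and Nck1, an adaptor protein, at -0.46 (SE 0.17), which were -1.15, -1.02 and -0.47 without LFG 3. For hADMSCs-Exo against LFG they were Creb3l2 at -0.96 and Eif2ak3 at -0.84, or -1.08 and -0.99 without LFG 3, where 3.68% of all genes were lower. The median of the list was -0.18, or -0.27 without LFG 3 and -0.084 without hADMSCs-Exo 1. In hADMSCs-Exo against REG 0 of 16 genes passed (median 0.04), where 5.34% of all genes were higher and 4.69% lower. Of the 26 other ATF4 targets, 24 were tested. In REG against LFG 8 lower and 0 higher genes had an unadjusted p under 0.05 (6.7% and 4.62% of all genes), led by Slc38a2, an amino acid transporter, at -1.78 (SE 0.38), Cebpb, a transcription factor, at -1.23 (SE 0.31) and Ddit4, an inhibitor of mTORC1, at -3.13 (SE 0.83). Without LFG 3 these were -1.71, -0.98 and -3.56, and Ddit4 was -1.62 without LFG 2. The median of the list was -0.49, beside -0.07 for all genes, or -0.87 without LFG 3, beside -0.0051.

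In hADMSCs-Exo against REG the ATF4 targets went both ways, with a median of 0.10, beside 0.01 for all genes. That median turned to -0.036 without REG 2 and to -0.028 without REG 3, and was 0.22 without REG 1. Cebpb at 0.93 (SE 0.23, adjusted p = 0.380 by edgeR), Ddit4 at 1.61 (SE 0.52) and Sesn2, a stress-induced inhibitor of mTORC1, at 0.64 (SE 0.24) had an unadjusted p under 0.05 on the higher side (5.34% of all genes). Psph, the last enzyme of serine synthesis, at -0.76 (SE 0.29) and Stc2, a secreted glycoprotein, at -1.79 (SE 0.72) had one on the lower side (4.69%). Single libraries moved some of these: Ddit4 was 0.97 without hADMSCs-Exo 3, and Stc2 was -3.12 without hADMSCs-Exo 2. Without hADMSCs-Exo 1, Ddit4 was 2.03 and Stc2 was -1.33. Of the same targets in hADMSCs-Exo against LFG, 2 lower and 0 higher genes passed (3.68% and 2.3% of all genes), Psph at -1.86 and Slc38a2 at -1.35, or -2.11 and -1.28 without LFG 3. The median was -0.44, or -0.58 without LFG 3. The 12 cytosolic tRNA synthetases, also targets of ATF4, had medians of -0.09 in REG against LFG, -0.22 in hADMSCs-Exo against LFG and -0.07 in hADMSCs-Exo against REG. Without LFG 3 the first turned to 0.083 and the second was -0.099. Of these, 0 genes in the first comparison and only Cars in the others had an unadjusted p under 0.05, at -0.72 (SE 0.30) and -0.36 (SE 0.15), where 3.68% and 4.69% of all genes were lower at this threshold. The first of these values was -0.33 without LFG 3. With each library left out, the medians in hADMSCs-Exo against REG ran from -0.20 (without hADMSCs-Exo 3) to 0.030 (without REG 3) for ER folding, from 0.0024 (without REG 1) to 0.15 (without REG 3) for ERAD and from -0.029 (without REG 1) to 0.14 (without hADMSCs-Exo 1) for the sensors. Over all these lists, 0 genes passed both thresholds by edgeR in any comparison with all libraries.

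**Figure D3:**
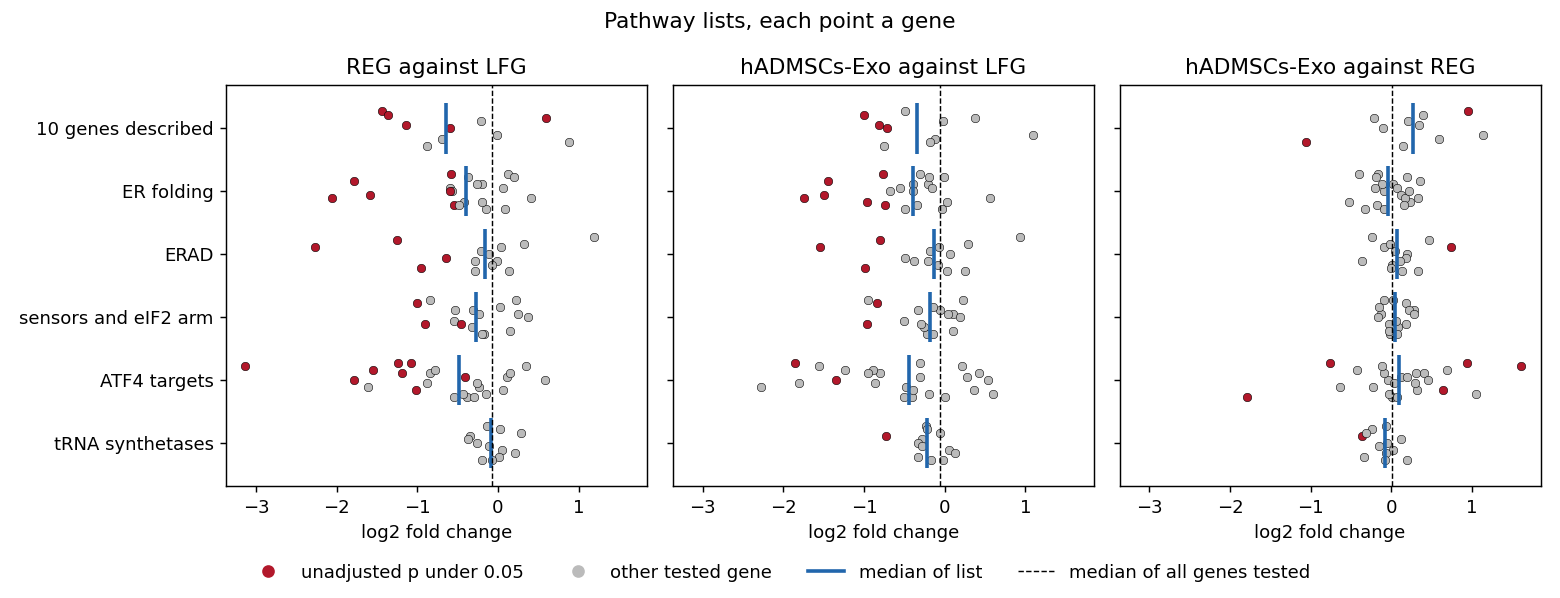
Log2FC on the x axis for every tested gene of the 10 described and of the 5 pathway lists in 3 comparisons; each point is a gene, red points have an unadjusted p under 0.05, blue bars are list medians and the dashed line is the median of all genes tested. Against LFG the red points lie on the negative side apart from Xbp1, and the tRNA synthetases lie between -0.72 (Cars in hADMSCs-Exo) and 0.28.

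Levels of 2 genes within a library do not depend on the scaling between libraries, and 3 such ratios of FPKM, chosen after the values had been seen, were taken as a description without a test. Trib3 over Ddit3 was 3.73, 2.71 and 1.60 in REG 1, 2 and 3, against 0.737, 0.528 and 0.456 in LFG and 0.464, 0.806 and 0.857 in hADMSCs-Exo. Trib3 was thus above Ddit3 per length in every REG library and below it in all the others. How reads shared by the nested Ddit3 entries were counted is not given, which leaves the level of Ddit3 in these ratios less certain. Hspa5 over Xbp1 was 4.70, 6.28 and 2.75 in LFG, 0.915, 1.05 and 1.39 in REG, and 1.09, 2.30 and 2.04 in hADMSCs-Exo. LFG did not overlap the other groups on this ratio, and REG and hADMSCs-Exo overlapped. Hspa5 over Herpud1 was 2.07, 1.27 and 0.584 in LFG, 0.546, 0.715 and 0.771 in REG and 0.844, 0.473 and 0.557 in hADMSCs-Exo, and here LFG 3 fell among the libraries of the other groups.

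**Figure D4:**
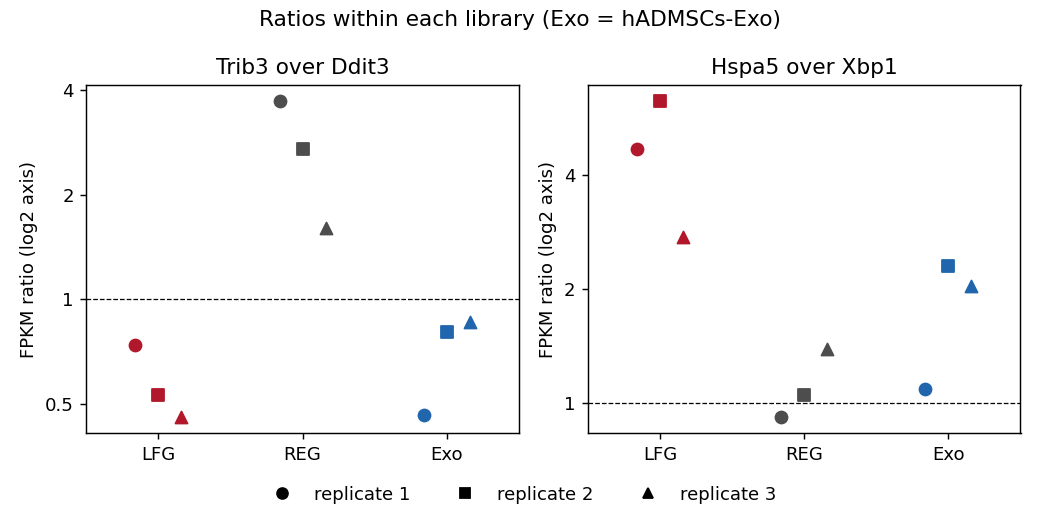
Ratio of FPKM within each library on a log2 axis, Trib3 over Ddit3 on the left and Hspa5 over Xbp1 on the right, for LFG, REG and hADMSCs-Exo (Exo); each point is a library, and the dashed line marks equal levels. The 3 REG points are the only ones above 1 for Trib3 over Ddit3, and the 3 LFG points are the highest for Hspa5 over Xbp1.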

How the data were processed

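Per the labels, liver RNA was extracted with Trizol and sequenced on an Illumina NovaSeq instrument. The authors deposited raw read counts per gene for 9 of the 12 samples, and beside them FPKM, which a recalculation from counts, gene length and library totals matched to within 9.19e-07 of each value. The submitters' processing notes name cutadapt 1.15, HISAT2 2.0.5, HTSeq 0.9.1, DESeq 1.30.0 and GRCm38, without their roles. The use of strand and the annotation are not given in the sources used here. The columns named MSC_E were taken as the hADMSCs-Exo samples of the same number. The labels do not spell MSC_E out, and a reading as the samples from mice given the cells (hADMSCs) cannot be told apart from the names alone. On the reading used, those 3 samples are not analysed here. FPKM was used only for levels and ratios within a library, and all tests used the counts.

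The main test was edgeR's quasi-likelihood test (version 4.0.16, R 4.3.3, two-sided), with TMM factors and filterByExpr, on the 6 libraries compared. It covered 12337 genes for hADMSCs-Exo against REG, 12517 for REG against LFG and 12489 for hADMSCs-Exo against LFG. P-values were adjusted over all of them by the Benjamini-Hochberg method, and a call needed an adjusted p under 0.05 together with a log2 fold change of at least 1 in size. Standard errors were derived from the fold change and its F statistic. The code was tested on simulated data. Among the alternatives were DESeq2 1.42.0, limma 3.58.1 with voom and quality weights, RLE factors, a minimum of 1 count in sum or of 10 in each library, a fit of 9 libraries, a replicate block, looser thresholds, and the omission of single libraries. Tables were joined with pandas 2.3.3 and plotted with matplotlib 3.10.9 under Python 3.11.15. Overlaps between genes were read from the GENCODE annotation of GRCm38, as were UTRs.

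The 10 genes and the gene lists were chosen with earlier results of these data known. All 10 genes are named, with up to 3 higher and 3 lower genes of each pathway list per comparison, those with the smallest unadjusted p among genes under 0.05. Further lists (clock, cell type markers) are given as sums or medians. Nothing in the labels says that replicates are separate animals, so p-values measure the spread between these samples. Replicates differed by more than sampling noise (chi-square per gene of at least 27.0). As a check of pairing, deviations from the group means were correlated between same-numbered libraries. For hADMSCs-Exo with LFG the correlations were 0.101, 0.308 and 0.179, all over 0.1, which held for no other pair of groups. With 3 values per pair of groups, these correlations do not decide whether libraries were paired. All values printed without mention of the replicate block come from fits without it, and the block was run as an alternative. REG with LFG gave 0.414, -0.200 and 0.306, and hADMSCs-Exo with REG gave 0.157, 0.0064 and 0.037.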

Additional observations from a re-analysis of the deposited data

How the results depend on the processing

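The number of the 10 genes past both thresholds, 0 in each comparison, became 2 with DESeq2, 3 with limma voom and 2 without LFG 3 in REG against LFG (0 to 2 over the libraries left out). Of all genes tested, 1.91% passed with DESeq2, 10.3% with limma voom and 10.7% without LFG 3. With an unadjusted p and no limit on fold change the number was 2 in hADMSCs-Exo against REG, 5 in REG against LFG and 3 in hADMSCs-Exo against LFG. In the same order, 5.34%, 4.62% and 2.3% of all genes were higher at that threshold, and 4.69%, 6.7% and 3.68% were lower. The number past both thresholds stayed at 0 with RLE size factors, without a filter and with at least 10 counts in every library. It also stayed at 0 with the 9 libraries fitted together, and with the replicate block, which changed no call of the 10 genes. The cause of the differences between tools was not tested. With each library left out, the median log2 fold change of the 10 genes ran from 0.18 to 0.58 in hADMSCs-Exo against REG (0.58 without REG 3), from -0.65 to -0.49 in REG against LFG, and from -0.45 to 0.068 in hADMSCs-Exo against LFG (0.068 without LFG 3).

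Hspa5, Dnajb9 and Pdia4 had a negative log2 fold change against LFG under all alternatives run. Signs turned elsewhere, and with each library left out the log2 fold change took these ranges. In hADMSCs-Exo against REG it ran from -0.45 to 0.015 for Xbp1 and from -0.31 to 0.0092 for Pdia4 (both highest without hADMSCs-Exo 2), from -0.15 to 0.84 for Asns (lowest without hADMSCs-Exo 2) and from -0.093 to 1.86 for Chac1 (lowest without hADMSCs-Exo 1). In REG against LFG it ran from -0.49 to 0.29 for Atf4 (highest without LFG 3) and from -0.70 to 1.2997 for Chac1 (highest without LFG 2). For hADMSCs-Exo against LFG the highest value came without LFG 3 for Ddit3 (-0.77 to 0.025), Atf4 (-0.29 to 0.45), Trib3 (-0.36 to 0.11) and Herpud1 (-0.44 to 0.27), and Chac1 ran from -0.11 without hADMSCs-Exo 1 to 2.42. With limma voom, Atf4 turned to 0.093 in REG against LFG, and Atf4, Trib3 and Herpud1 to 0.20, 0.16 and 0.027 in hADMSCs-Exo against LFG. Chac1 turned to 0.013 without a filter and to 0.28 with the replicate block in REG against LFG, and Atf4 to 0.069 with the replicate block in hADMSCs-Exo against LFG. Trib3, Chac1, Asns and Ddit3 have few reads per library, which limits their precision.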

Other observations

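Among 14 heat shock genes, mostly of cytosolic chaperones, 14 had a negative log2 fold change in REG against LFG (median -1.24, or -1.13 without LFG 3), and 11 of them had an unadjusted p under 0.05, as 6.7% of all genes tested had on the lower side. The list also holds the mitochondrial chaperones Hspd1, at -0.0081, and Hspe1, at -0.33 or 0.39 without LFG 3. Hsph1, a nucleotide exchange factor of Hsp70, stood at -2.72 (standard error 0.32), Hspa1a, the inducible Hsp70, at -3.28 (standard error 0.44) and Hsp90aa1, the inducible cytosolic Hsp90, at -1.71 (standard error 0.29), each with an adjusted p of at least 0.230 by edgeR with all libraries. Without LFG 3 their adjusted p was 0.0107, 0.0145 and 0.0107, and over the alternatives it ran from 5.44e-11, 3.06e-07 and 2.73e-05 up to 0.928. In hADMSCs-Exo against LFG 13 of 14 were negative (median -0.85, or -0.70 without LFG 3), 9 of them with an unadjusted p under 0.05 (3.68% of all genes), led by Hspa1b at -2.36, Hspa1a at -3.66 and Hsph1 at -1.61, or -2.21, -3.37 and -1.71 without LFG 3. Hspa1a and Hspa1b are near-identical copies, and the reads of each are uncertain. In hADMSCs-Exo against REG the median over 13 tested genes was 0.46, and 4 higher and 0 lower genes had an unadjusted p under 0.05 (5.34% and 4.69% of all genes), among them Bag3 at 0.56, Hsph1 at 1.13 and Hsp90aa1 at 0.48. The 12 genes of the circadian clock that were tested had a median of -0.35 in REG against LFG, with 3 lower and 1 higher at an unadjusted p under 0.05 (6.7% and 4.62% of all genes). Without LFG 3 that median was -0.067, but the genes went both ways and 5 of the 12 then passed both thresholds, 3 lower and 2 higher, where 10.7% of all genes passed. Arntl was then at -3.09 and Dbp at 2.91. In hADMSCs-Exo against REG, groups of the same study week, the median was 0.34, with 2 higher (Cry1 at 1.65 and Arntl at 1.74) and 2 lower (Nr1d1 at -1.32 and Dbp at -1.09) at an unadjusted p under 0.05, as 5.34% and 4.69% of all genes had. In hADMSCs-Exo against LFG the median was -0.20, or 0.025 without LFG 3, and 0 of the 12 had an unadjusted p under 0.05. These clock genes were named after their values had been seen. The part of the hour of sampling in any comparison was not tested.

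The other marker lists were read as sums. Stellate cell and myofibroblast genes summed to 875, 517 and 17.1 CPM in LFG 1, 2 and 3, 86.5 to 158 CPM in REG and 28.4 to 62.2 CPM in hADMSCs-Exo. Macrophage genes ran from 116 (LFG 3) to 1001 CPM in LFG, 339 to 959 CPM in REG and 644 to 799 CPM in hADMSCs-Exo. In the same order of groups, the 4 plasma cell genes of 6 listed that the table holds ran from 164 to 327, 312 to 337 and 327 to 401 CPM. Cholangiocyte genes ran from 49.6 to 192 CPM in LFG, 68.1 to 74.6 in REG and 53.3 to 128 in hADMSCs-Exo, neutrophil genes from 6.21 to 11.6, 5.75 to 45.0 and 21.9 to 40.7, and sinusoidal endothelium genes from 45.0 to 107, 71.6 to 191 and 47.1 to 143.

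Promoter windows with an ERSE or ERSE-II were found for 49 gene symbols on 51 windows, a list formed after the values had been seen and given without a test. Of these, 25 genes were tested in REG against LFG, with 18 lower and 7 higher and a median log2 fold change of -0.24, and 6 lower and 0 higher had an unadjusted p under 0.05 (6.7% and 4.62% of all genes). The median of all genes was -0.07 in REG against LFG, -0.06 in hADMSCs-Exo against LFG and 0.01 in hADMSCs-Exo against REG. Of the 27 tested in hADMSCs-Exo against LFG, 22 were lower (median -0.34), and of the 25 tested in hADMSCs-Exo against REG, 15 were lower (median -0.05). For genes with a CARE the medians were -0.08, -0.04 and 0.04 over 284, 284 and 279 tested genes. The list with ERSE or ERSE-II includes Hspa5 and Herpud1 and is not separate from the genes already described. Of its 6 lower genes in REG against LFG, 5 (Hspa5, Creld2, Syvn1, Dnajb11 and Hsp90b1) are among the 10 genes or in the ER folding and ERAD lists, and the other is Alg12.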
